A study of Mus musculus with 6 samples.

Results

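Fibronectin, the laminin chains, the integrin subunits and 8 further glycoproteins of extracellular matrix and basement membrane were followed in mouse spinal cord. The cells were labelled as motor neurons. The rule that picks the members reads gene symbols and no measured value, though earlier results of these data were known when it was set. It takes every laminin α, β and γ chain, every integrin α and β subunit, and Fn1, Nid1, Nid2, Tnc, Tnr, Vtn, Hspg2, Agrn and Reln. Of 56805 genes in the count table, 46 met this rule: 11 laminin chains, 26 integrin subunits and 9 other glycoproteins. Total RNA of cells labelled as motor neurons was sequenced at e12.5 (embryonic day), with 3 cervical and 3 thoracic libraries. All 6 carry the genotype label control and received no treatment. The isolation of the cells and any pooling of embryos were not given in the sources used here. Replicates are described as biological, but no label ties them to separate embryos or litters, so the p-values measure the spread between these libraries.

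Deposited counts summed to between 32103071 and 53186131 per library, and the 46 genes together took 0.337 to 0.398% of them. All 10 motor neuron markers examined were detected, and Mnx1 lay between 133.9 and 226.6 CPM (counts scaled to a common library size with TMM factors). Interneuron markers summed to 1685 to 2093 CPM and neural progenitor markers to 1200 to 1710 CPM, against 358.4 to 724.8 CPM for the motor neuron markers. Some genes on the first 2 lists, such as Lhx1 and Slc17a6, are also known from motor neurons. Other interneuron markers were high as well: Pax2 lay between 421.9 and 573.0 CPM, above Mnx1 in every library, and Slc6a5 between 166.7 and 275.4 CPM. How much of the matrix gene levels came from motor neurons was not tested. In bulk RNA, fewer cells of a type and less RNA per cell cannot be told apart.

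Laminins are cross-shaped trimers of an α, a β and a γ chain that polymerise into the sheet at the base of epithelia, including the basement membrane around the neural tube. Nidogens, perlecan (the product of Hspg2) and agrin tie this sheet to the collagen IV network and to cells. Integrins are αβ heterodimers through which cells hold on to laminin, fibronectin, collagen or vitronectin, and several recognise the short peptide Arg-Gly-Asp (RGD) in their ligands. In the spinal cord, the surrounding basement membrane bounds the motor exit points, and agrin released by motor axons organises the neuromuscular synapse.

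Because RGD is the peptide read by the α5, α8, αv and αIIb integrins, the coding sequences of the 20 matrix genes were searched for codons spelling it (longest open reading frame of the GENCODE M21 transcripts). 10 of the 20 held at least 1 such triplet, and Agrn, Lama2, Lamb1, Lamb2, Lamb3, Lamc1, Lamc3, Reln, Tnc and Tnr held none. The frames searched ran from 478 codons in Vtn to 4383 in Hspg2. How often frames of other genes hold such a triplet was not counted, so 10 of 20 is not shown to be particular to matrix genes. Fn1 held 2, at codons 1614 to 1616 and at codons 2181 to 2183. Lama5 also held 2. The windows of Fn1, Vtn, Hspg2, Nid1, Nid2 and Lama1 are shown 5′ to 3′, with the triplet in capitals and 4 codons on either side. Those of the other genes with a triplet, Lama5 among them, are not shown.
Fn1, first: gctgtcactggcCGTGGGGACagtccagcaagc
Fn1, second: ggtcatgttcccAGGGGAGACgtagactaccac
Vtn: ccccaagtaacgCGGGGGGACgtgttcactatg
Hspg2: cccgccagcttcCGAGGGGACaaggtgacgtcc
Nid1: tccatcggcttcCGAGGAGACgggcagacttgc
Nid2: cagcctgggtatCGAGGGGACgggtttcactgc
Lama1: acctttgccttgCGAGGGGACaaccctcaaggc
The 7 windows use CGT, CGA, CGG and AGG for arginine, and the triplet is spelled alike in Hspg2, Nid2 and Lama1 only. A triplet in the coding sequence does not say that an integrin reaches it in the folded protein.

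Levels spread over close to 4 orders of magnitude when set per kilobase of exon, the scale on which different genes are compared here. Agrn stood highest at 120.5 ± 1.61 CPM per kilobase in cervical and 124.6 ± 7.58 in thoracic libraries (mean ± SD, n = 3, as for all such pairs). Reln, the secreted guidance glycoprotein reelin, followed at 58.3 ± 2.45 and 55.0 ± 8.18 CPM per kilobase. Itgb1, the β chain shared by most matrix-binding integrins, came next at 32.2 ± 0.776 and 36.5 ± 2.93 CPM per kilobase. Vtn followed at 19.8 ± 16.1 and 36.8 ± 11.8 CPM per kilobase, so its place beside Itgb1 is within its own spread. Lama1 (mean over all 6 libraries 17.7 CPM per kilobase) and Lamc1 (13.5) led the laminins, and Fn1 (8.11), Itgb8 (8.0), Itga3 (8.61) and Tnr (7.76) formed a close group below them. Among these last 4 genes the library values interleaved. At the other end, 5 genes were too low to be tested: Itgb2, Itgb6, Itgad, Itgam and Itgax, with at most 13 counts in any library.

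**Figure D1:**
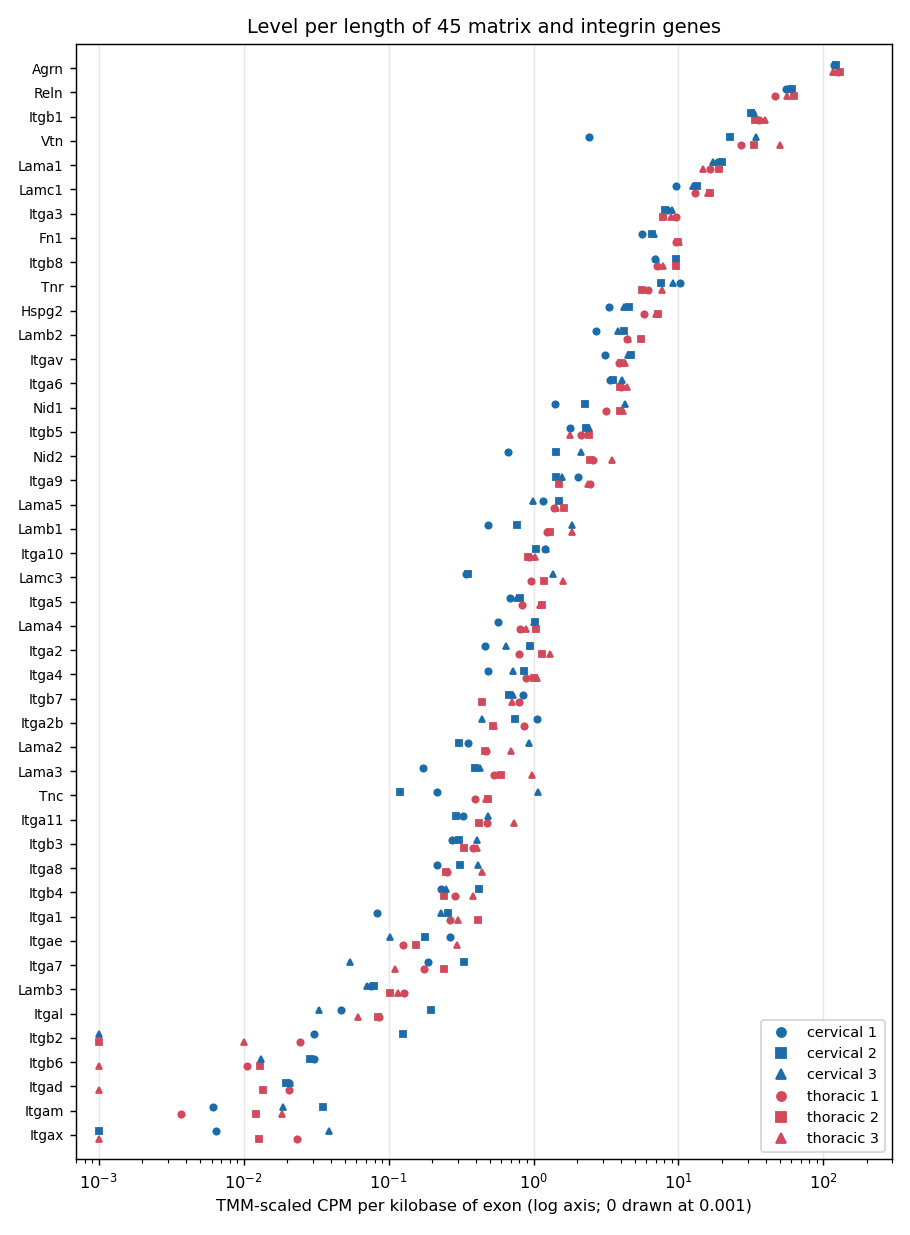
TMM-scaled CPM per kilobase of exon (log axis, 0 drawn at 0.001) of 45 genes in each of the 6 libraries, sorted by mean; circles, squares and triangles are replicates 1, 2 and 3, blue cervical and red thoracic. Agrn and Reln lie at the top, the 5 untested genes at the bottom, and cervical replicate 1 lies far left of the other libraries for Vtn.

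Between regions, 2 of the 41 tested genes passed edgeR's quasi-likelihood test at an adjusted p below 0.05, both higher in thoracic libraries: Fn1 and Hspg2. Over all 21972 tested genes, 0.542% were called, 0.35% higher in thoracic and 0.191% higher in cervical libraries. None of the 41 was called higher in cervical libraries, where limma-voom called 0 and DESeq2 called 1, Tnr. Unadjusted p-values below 0.05 were found for 1 of the 41 in the cervical and 11 in the thoracic direction, against 3.27% and 5.19% of all tested genes. Libraries of the same replicate number deviated together, and a fit with the replicate number as a block called 7 of the 41 higher in thoracic and 1 higher in cervical libraries, against 1.39% and 0.573% of all tested genes (1.97% in either direction). The log2 fold change, cervical minus thoracic, was below 0 for 30 of the 41 (73.2%) and for 47.9% of all tested genes. Its median was -0.18 over the 41 and 0.01 over all tested genes. The 3 thoracic values all lay above the 3 cervical values for 10 of the 41, against 7.5% of all tested genes, and the reverse held for 1, Itga10, against 6.25%.

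**Figure D2:**
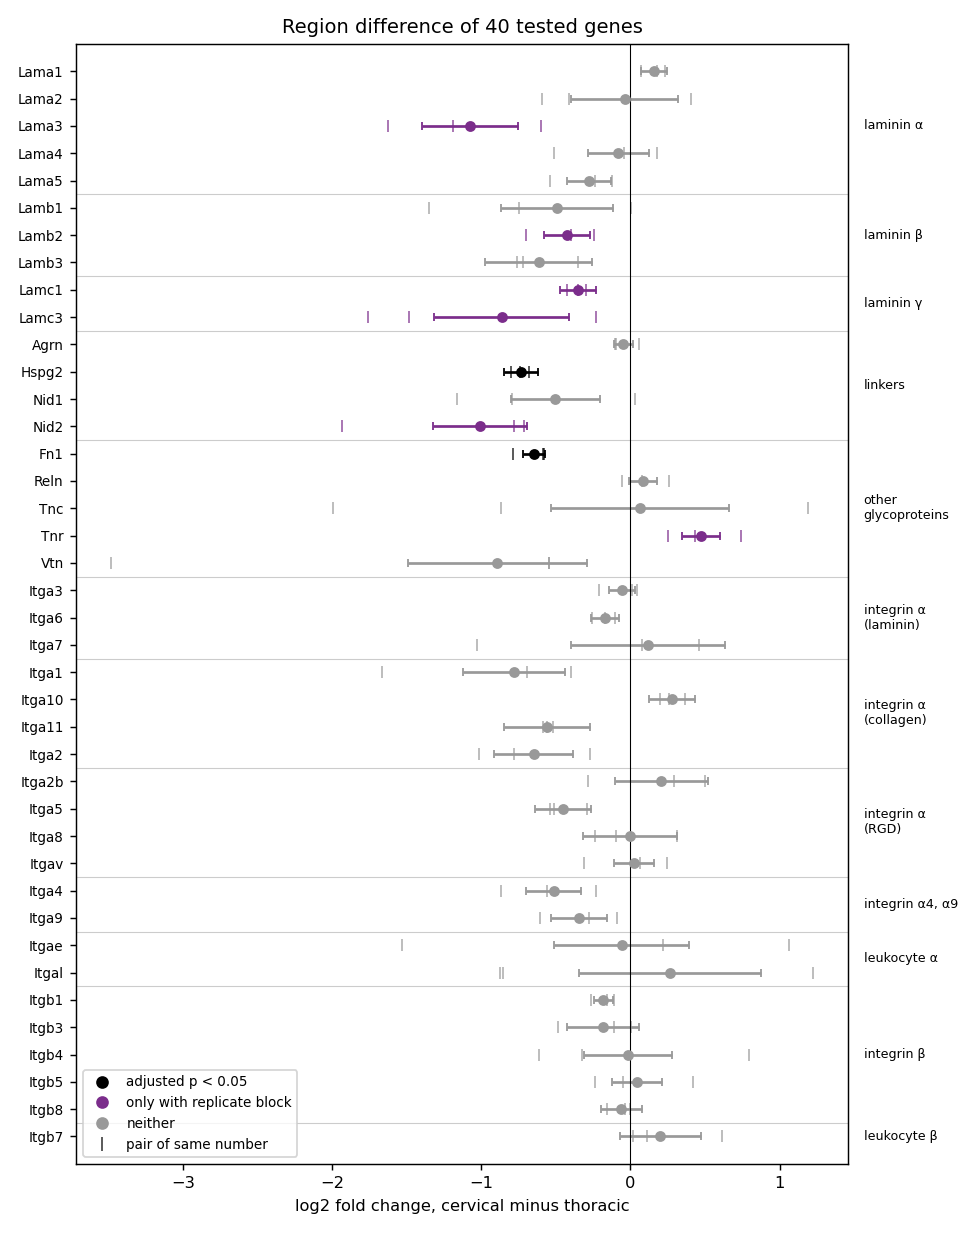
Log2 fold change, cervical minus thoracic, of 40 tested genes by role, with bars of 1 standard error on either side and ticks for the 3 pairs of libraries with the same number. Black points (Fn1, Hspg2) passed without the replicate block, purple points passed only with it, and grey points passed neither; most points lie left of 0.

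Fn1 encodes fibronectin, the RGD-bearing glycoprotein of interstitial matrix (mm39 chr1:71624679-71692359, minus strand). Its level in cervical replicates 1, 2 and 3 was 65.5, 77.2 and 79.0 CPM, and in thoracic replicates 1, 2 and 3 it was 112.8, 116.1 and 117.8 CPM. The lowest thoracic library stood above the highest cervical one. The means were 73.9 ± 7.35 and 115.6 ± 2.56 CPM, a 1.56-fold higher thoracic level. The log2 fold change was -0.65 with a standard error of 0.08 (edgeR adjusted p = 0.00954, and 0.00033 with the replicate block). Within the pairs of the same number it was -0.78, -0.59 and -0.58. By p-value, Fn1 ranked 9th among all tested genes.

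Hspg2 encodes perlecan, the large heparan sulfate proteoglycan of basement membranes (mm39 chr4:137196080-137297941, plus strand). Cervical replicates 1, 2 and 3 measured 49.0, 66.7 and 61.9 CPM, and their thoracic counterparts 85.2, 106.8 and 103.5 CPM. The regions did not overlap, and replicate 1 was the lowest in each. The means were 59.2 ± 9.16 and 98.5 ± 11.6 CPM, 1.66-fold higher in thoracic libraries. The log2 fold change was -0.73 with a standard error of 0.12 (edgeR adjusted p = 0.0249, and 0.000127 with the block), and -0.80, -0.68 and -0.74 within pairs. The call rested on several libraries: leaving out cervical replicate 3 gave an adjusted p of 0.109, leaving out thoracic replicate 2 one of 0.0987, and leaving out thoracic replicate 3 one of 0.106.

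The 250 bases before the start of Hspg2 are shown because this gene passed the test and its upstream sequence was in the supplied RefSeq table (build GRCm38.p6, an older build than that of the counts; chr4:137468553-137468802, plus strand). Capitals mark the GC box GGGCGG, a motif bound by Sp-family factors.
Hspg2 upstream: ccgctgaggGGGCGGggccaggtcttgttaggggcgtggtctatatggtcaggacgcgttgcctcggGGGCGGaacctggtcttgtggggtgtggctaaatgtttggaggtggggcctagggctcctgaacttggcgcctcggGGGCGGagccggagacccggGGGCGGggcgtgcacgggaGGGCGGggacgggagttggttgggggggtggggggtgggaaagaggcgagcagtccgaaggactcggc
The GC box occurred 5 times on the strand shown, beginning at -241, -183, -107, -87 and -68 from the start, and the copies do not overlap. A search of both strands found no TATAAA, no CCAAT and no TGACGTCA in this window. Over 32851 upstream windows of the same length, 32.7% held a GC box on either strand, 33.8% CCAAT, 12.4% TATAAA and 1.55% TGACGTCA. These matches describe letters and not bound sites.

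**Figure D3:**
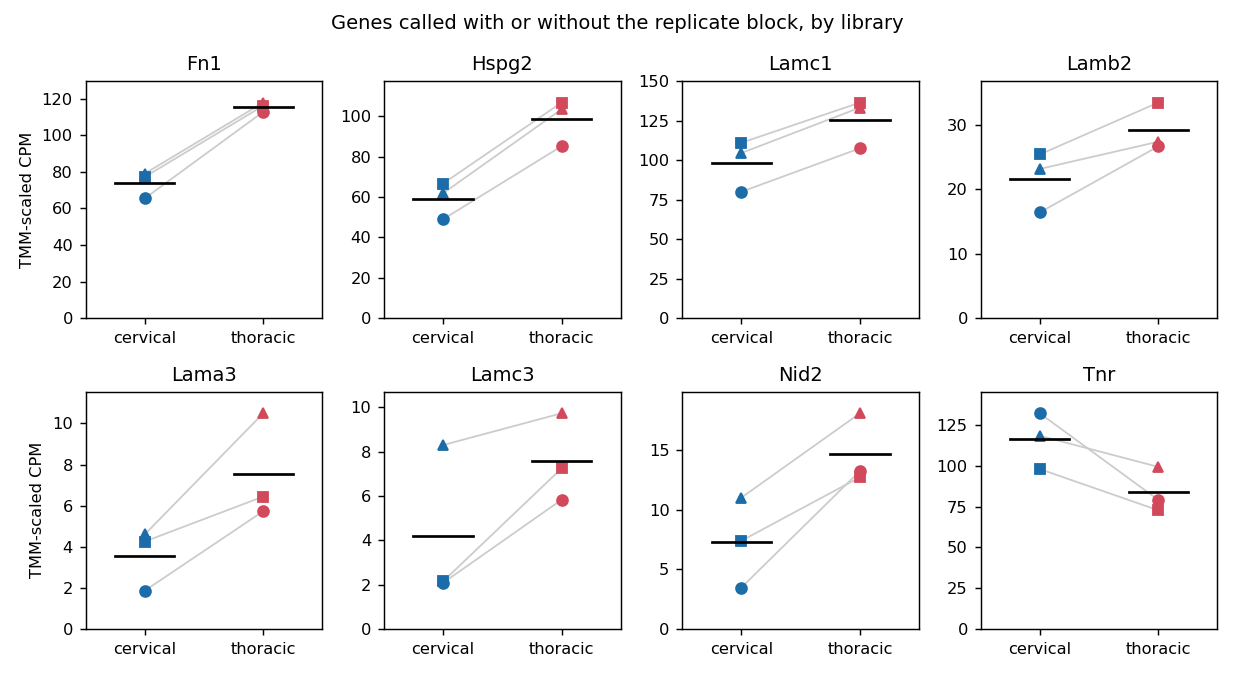
TMM-scaled CPM in each library for the 8 genes called with or without the replicate block; black bars are means, circles, squares and triangles are replicates 1, 2 and 3, and grey lines join libraries of the same number. Thoracic lies above cervical in every pair for 7 genes and below it in every pair for Tnr, while regions overlap for Lamc1, Lamc3 and Tnr.

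Among the laminin α chains, Lama1, a main α chain of embryonic basement membranes, made up 86.4 ± 2.63% of summed α-chain level per length in cervical and 82.0 ± 2.84% in thoracic libraries. It measured 180.2, 193.6 and 168.8 CPM in cervical and 159.3, 184.1 and 143.4 CPM in thoracic libraries. The regions overlapped (log2 fold change 0.16, standard error 0.09, edgeR adjusted p = 0.727). Lama3, an α chain of epithelial laminins, was scarce, at 1.86, 4.25 and 4.60 CPM against 5.73, 6.44 and 10.5 CPM. Every thoracic library exceeded every cervical one, but Lama3 was called only with the block (log2 fold change -1.07, standard error 0.32, edgeR adjusted p = 0.283, and 0.0115 with the block). Lama5 was at 13.3, 17.0 and 11.2 CPM in cervical and 15.7, 18.4 and 16.3 CPM in thoracic ones (log2 fold change -0.28, standard error 0.15, edgeR adjusted p = 0.70). Lama2 and Lama4, chains of muscle, nerve and vessel laminins, overlapped between regions, at 5.08 to 15.4 and 6.88 to 12.6 CPM.

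Lamb2 was the most abundant β chain per length, with 77.5 ± 9.43% of the summed β-chain level in cervical and 75.3 ± 5.09% in thoracic libraries. This chain of synaptic and basement membrane laminins (mm39 chr9:108356935-108367729) measured 16.4, 25.4 and 23.2 CPM in cervical and 26.7, 33.5 and 27.4 CPM in thoracic libraries. The regions did not overlap, although cervical replicate 2 and thoracic replicate 1 lay close together. Its log2 fold change was -0.43 with a standard error of 0.15 (edgeR adjusted p = 0.422, and 0.0431 with the block). Lamb1 ran from 4.80 to 18.2 CPM in cervical libraries, the widest spread among the β chains, and from 12.3 to 18.2 CPM in thoracic ones (log2 fold change -0.49, standard error 0.38, edgeR adjusted p = 0.826). Lamb3 stayed below 1 CPM in all 6 libraries.

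Lamc1, the γ chain of most laminins, supplied 92.5 ± 3.34% of the summed γ-chain level per length in cervical and 90.5 ± 1.45% in thoracic libraries (mm39 chr1:153094668-153208532, minus strand). It measured 80.0, 111.0 and 104.5 CPM in cervical libraries and 107.4, 136.4 and 133.2 CPM in thoracic libraries. Cervical replicate 2 lay above thoracic replicate 1, so the regions overlapped, while within each pair the thoracic library was higher (log2 fold changes -0.43, -0.30 and -0.35). The log2 fold change was -0.35 with a standard error of 0.12 (edgeR adjusted p = 0.381, and 0.00776 with the block). Lamc3 was at 2.08, 2.14 and 8.29 CPM against 5.82, 7.24 and 9.72 CPM. Cervical replicate 3 lay inside the thoracic range (log2 fold change -0.86, standard error 0.45, edgeR adjusted p = 0.691; -1.11 and 0.0442 with the block). Of all 11 laminin chains, 10 had a log2 fold change below 0, with a median of -0.35, against 47.9% of all tested genes below 0. None was called without the block and 4 were called higher in thoracic libraries with it, against 0.35% and 1.39% of all tested genes. An unadjusted edgeR p below 0.05 in the thoracic direction was found for 3 chains, against 5.19% of all tested genes.

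Agrn, the most abundant of the 46 genes per length, measured 1103, 1133 and 1121 CPM in cervical and 1177, 1215 and 1079 CPM in thoracic libraries. Thoracic replicate 3 was the lowest of all 6 (log2 fold change -0.05, standard error 0.06, edgeR adjusted p = 0.927). The nidogens, which bridge laminin and collagen IV, were lower and more variable. Nid2 was at 3.47, 7.39 and 11.01 CPM in cervical and 13.3, 12.7 and 18.1 CPM in thoracic libraries. The regions did not overlap (log2 fold change -1.01, standard error 0.32, edgeR adjusted p = 0.318, and 0.0102 with the block). Nid2 shares 437 exonic bases with Rtraf on the opposite strand, which averaged 1506 counts, so its values are uncertain where counting did not use strand. Nid1 was at 9.80, 15.8 and 29.5 CPM against 21.9, 27.4 and 28.9 CPM, with cervical replicate 3 the highest of the 6 and the edgeR adjusted p at 0.755.

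Tnr encodes tenascin-R, a matrix glycoprotein of the nervous system, and was the 1 gene of the 46 called higher in cervical libraries in any edgeR fit with all 6 libraries (mm39 chr1:159351339-159759299, plus strand). It measured 132.1, 98.0 and 118.3 CPM in cervical and 79.1, 72.7 and 99.3 CPM in thoracic libraries. Cervical replicate 2 and thoracic replicate 3 crossed narrowly. The means were 116.1 ± 17.2 and 83.7 ± 13.9 CPM (log2 fold change 0.47, standard error 0.12, edgeR adjusted p = 0.188, and 0.00877 with the block). Its relative Tnc, tenascin-C, was at 1.67, 0.939 and 8.32 CPM against 3.06, 3.74 and 3.64 CPM, so that the cervical libraries alone held both the highest and the lowest value. Reln was at 1321, 1435 and 1397 CPM in cervical and 1103, 1490 and 1324 CPM in thoracic libraries, with both extremes thoracic (log2 fold change 0.08, standard error 0.10, edgeR adjusted p = 0.908).

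Vtn encodes vitronectin, an RGD-bearing ligand of αv integrins. It measured 4.93, 46.4 and 69.2 CPM in cervical and 55.0, 67.7 and 101.2 CPM in thoracic libraries. Cervical replicate 1 was far below all others, and the cervical libraries spanned a 14.0-fold range. The log2 fold change was -0.89 with a standard error of 0.60 (edgeR adjusted p = 0.802, and 0.117 with the block), and it was -0.37 without cervical replicate 1.

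No integrin subunit passed the test with or without the block, against 1.97% and 0.542% of all tested genes. Of the 21 tested, 14 had a log2 fold change below 0, against 47.9% of all tested genes, and the median was -0.06. An unadjusted edgeR p below 0.05 was found for 5, all in the thoracic direction. Over all tested genes, 5.19% had such a p in the thoracic and 3.27% in the cervical direction. Itgb1 supplied 73.8 ± 3.29% of the summed β-subunit level per length in cervical and 75.8 ± 3.09% in thoracic libraries. It measured 131.2, 128.6 and 134.9 CPM in cervical and 146.3, 138.8 and 162.2 CPM in thoracic libraries. The regions did not overlap, with a small difference (log2 fold change -0.18, standard error 0.07, edgeR adjusted p = 0.438, and 0.236 with the block). Itgb8, the αv partner that activates latent TGF-β, was the next β subunit at 76.7, 106.0 and 77.2 CPM against 78.7, 106.2 and 86.2 CPM (log2 fold change -0.06, standard error 0.14, edgeR adjusted p = 0.962). Replicate 2 was the highest Itgb8 library in each region.

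Among the α subunits, the laminin receptor chain Itga3 took 36.2 ± 2.08% of the summed α level per length in cervical and 34.5 ± 2.42% in thoracic libraries. Itga3 lay at 47.3, 46.1 and 51.3 CPM against 54.6, 44.7 and 50.9 CPM (log2 fold change -0.06, standard error 0.09, edgeR adjusted p = 0.941). Itga6, the other main laminin receptor chain, lay at 30.7, 32.4 and 37.4 CPM against 36.7, 36.4 and 40.1 CPM (log2 fold change -0.17, standard error 0.09, edgeR adjusted p = 0.706). For both chains the regions overlapped. Itgav, the α partner of Itgb8 and a receptor chain for RGD ligands, was at 33.7, 51.0 and 48.2 CPM against 41.8, 42.9 and 46.1 CPM (log2 fold change 0.02, standard error 0.13, edgeR adjusted p = 0.989). The cervical libraries enclosed the thoracic range.

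Itga5, whose product pairs with β1 as the classical fibronectin receptor, was scarcer. It measured 3.38, 3.96 and 3.79 CPM in cervical and 4.12, 5.64 and 5.50 CPM in thoracic libraries, without overlap (log2 fold change -0.45, standard error 0.19, edgeR adjusted p = 0.529). Itga4, another fibronectin receptor chain, was at 6.82, 12.03 and 10.0 CPM against 12.4, 14.1 and 14.7 CPM. Its regions did not overlap either (log2 fold change -0.51, standard error 0.18, edgeR adjusted p = 0.422, and 0.0763 with the block). Itga9, a tenascin receptor chain, was at 15.5, 10.9 and 12.02 CPM against 18.8, 11.6 and 18.3 CPM, with overlap (log2 fold change -0.34, standard error 0.19, edgeR adjusted p = 0.714).

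Of the 4 collagen-binding α subunits, Itga1, Itga2 and Itga11 had log2 fold changes of -0.78, -0.65 and -0.56 and Itga10 one of 0.28. Itga10 lay at 6.26, 5.43 and 6.32 CPM in cervical and 4.85, 4.72 and 5.28 CPM in thoracic libraries, without overlap (standard error 0.16, edgeR adjusted p = 0.723). Of its 5186 exonic bases, Itga10 shares 1739 with Gm42957 on the same strand, which averaged 11.3 counts, so its level per length is uncertain. Itga2 lay at 3.29, 6.78 and 4.60 CPM against 5.66, 8.16 and 9.29 CPM, with overlap (standard error 0.26, edgeR adjusted p = 0.514). Itga1 ran from 1.55 to 4.75 CPM in cervical and from 4.93 to 7.70 CPM in thoracic libraries. Itgb5 stood at 6.35 to 8.54 CPM, and Itga2b, Itga7, Itga8, Itgb3 and Itgb4 at 0.438 to 5.77 CPM, all with overlapping regions.

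The genes through which these receptors and ligands act were read from the same fit: 84 of the 93 genes on 5 lists (integrin adaptors, matrix receptors other than integrins, agrin signalling, reelin signalling, other matrix) were tested. None was called by edgeR or limma-voom, with 22 thoracic and 2 cervical unadjusted p-values below 0.05, and DESeq2 called 9 and 1. Over all tested genes, 5.19% and 3.27% had such unadjusted p-values. With the replicate block, 12 were called higher in thoracic and 1 higher in cervical libraries, against 1.39% and 0.573% of all tested genes. Of 21 integrin adaptors, 17 had a log2 fold change below 0, against 47.9% of all tested genes, and the median was -0.17. Lims1, encoding the PINCH1 adaptor that binds integrin-linked kinase, was at 31.3, 28.9 and 31.8 CPM against 39.7, 40.2 and 45.8 CPM (log2 fold change -0.45, edgeR adjusted p = 0.0547, and 0.0102 with the block). Parvb, which encodes another partner of that kinase, and Kank1, a talin-binding protein, were likewise called only with the block (log2 fold changes -0.48 and -0.39, edgeR adjusted p = 0.00565 and 0.0472 with it). Ilk, the gene of the kinase itself, was scarce, at 0.188 to 0.859 CPM (log2 fold change -0.91, edgeR adjusted p = 0.740). Bcar1, the most abundant adaptor per length, had a log2 fold change of -0.01.

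Among 22 tested receptors other than integrins the median was -0.07. Cd44, the hyaluronan receptor, was at 0.837, 1.496 and 1.63 CPM in cervical and 2.48, 4.11 and 5.96 CPM in thoracic libraries. Every thoracic library was above every cervical one (log2 fold change -1.65, edgeR adjusted p = 0.0875, and 0.00255 with the block). The proteoglycan gene Gpc3 was called only with the block (log2 fold change -0.43, edgeR adjusted p = 0.0459 with it), and Sdc3, the most abundant receptor per length, was not called (log2 fold change -0.13). Of the 4 genes of agrin signalling, Musk and Rapsn were too low to test. The agrin receptor gene Lrp4 lay at 14.7, 15.1 and 15.7 CPM in cervical and 20.0, 19.3 and 20.0 CPM in thoracic libraries. The regions did not overlap, yet Lrp4 missed the threshold (log2 fold change -0.38, standard error 0.09, edgeR adjusted p = 0.154, and 0.0941 with the block). The 6 reelin signalling genes had a median of -0.08, none had an unadjusted p below 0.05, and the most abundant per length, Crkl, had a log2 fold change of -0.08.

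Of 33 tested genes for other matrix proteins, the median log2 fold change was -0.27. The collagen IV genes Col4a1 and Col4a2, which build the network to which laminins are tied, had log2 fold changes of -0.83 and -0.87 (edgeR adjusted p = 0.466 and 0.409, and 0.00268 and 0.00211 with the block). Col4a1 ran from 24.95 CPM in cervical replicate 1 to 80.4 CPM in cervical replicate 3, and from 71.9 to 109.7 CPM in thoracic libraries. The microfibril genes Fbn1 and Fbn2, the basement membrane genes Frem1 and Frem2, and Smoc1 were also called higher in thoracic libraries only with the block, at log2 fold changes of -0.45 to -0.90 without it. Vcan, the chondroitin sulfate proteoglycan versican, was the 1 gene on these lists called higher in cervical libraries with the block. It lay at 642.0, 679.5 and 813.3 CPM in cervical and 585.8, 464.3 and 543.1 CPM in thoracic ones (log2 fold change 0.42, standard error 0.10, edgeR adjusted p = 0.141, and 0.0112 with the block). Ncan, the most abundant of this list per length, had a log2 fold change of 0.06.

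Markers of other cell types differed between libraries alongside these genes, in both directions. Summed mesenchyme markers were 22.0, 71.6 and 226.1 CPM in cervical and 135.2, 160.9 and 225.4 CPM in thoracic libraries. All 12 tested markers of 14 listed had a log2 fold change below 0, and 2 were called higher in thoracic libraries with the block. Floor plate markers summed to 457.1, 1076 and 1001 CPM against 1039, 1327 and 1539 CPM, with all 8 below 0 and 6 called higher in thoracic libraries with the block. Pericyte markers summed to 18.9 to 39.0 CPM in cervical and 34.7 to 55.2 CPM in thoracic libraries (7 of 7 below 0, 2 called with the block). Endothelial markers summed to 10.2 to 18.7 and 15.3 to 22.2 CPM (9 of 10 below 0, none called with the block). On these 4 lists no marker was called without the block, and no marker was at 0 in all libraries. Cervical replicate 1 had the lowest sum on each of the 4 lists and was the lowest of 6 libraries for 22 of the 41 tested genes. Its motor neuron marker sum was the highest. These sums were 724.8, 358.4 and 501.7 CPM in cervical and 671.0, 448.0 and 616.8 CPM in thoracic libraries. Of the 10 motor neuron markers, 6 had a log2 fold change below 0 and 4 above 0, and 2 were called higher in thoracic libraries with the block. Macrophage markers summed to 5.58 to 17.2 CPM in cervical and 4.91 to 9.97 CPM in thoracic libraries, with all 8 tested of 10 above 0, 3 with an unadjusted p below 0.05 and none called. Erythroid markers summed to 10.3 to 25.3 and 7.79 to 11.05 CPM, with all 4 tested of 10 above 0 and 1 called higher in cervical libraries with the block. Meninges markers summed to 81.3 to 249.5 and 94.6 to 146.7 CPM. Of their 7 tested, 2 were above 0 and 5 below, and 1, Aldh1a2, was called higher in cervical libraries with the block. Aldh1a2 lay at 132.5, 12.6 and 50.4 CPM in cervical and 23.0, 4.36 and 7.78 CPM in thoracic libraries. This gene alone supplied 132.5 of the 249.5 CPM of meninges markers in cervical replicate 1. Over all tested genes, 47.9% were below 0, and the block called 1.39% higher in thoracic and 0.573% higher in cervical libraries. Interneuron markers summed to 1912 to 2093 CPM in cervical and 1685 to 1711 CPM in thoracic libraries, without overlap. Of these 16 markers edgeR called 3 higher in cervical (Lhx1, Pax2, Slc6a5) and 3 higher in thoracic libraries (Gata3, Lmx1b, Sim1). Progenitor markers summed to 1200 to 1439 and 1368 to 1710 CPM. Of these 12 markers, 9 had a log2 fold change below 0 and 3 above 0, with a median of -0.05. With the block 2 of them, Nes and Vim, were called higher in thoracic libraries. The part of any of these cells in the matrix gene differences was not tested.

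Without cervical replicate 1, Fn1 and Hspg2 passed edgeR's test with log2 fold changes of -0.56 and -0.61 (adjusted p = 0.00575 and 0.0193). With any 1 library left out, the edgeR adjusted p ran from 0.00575 to 0.0388 for Fn1 and from 0.0141 to 0.109 for Hspg2. Whether the marker differences have a part in these calls was not tested.

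**Figure D4:**
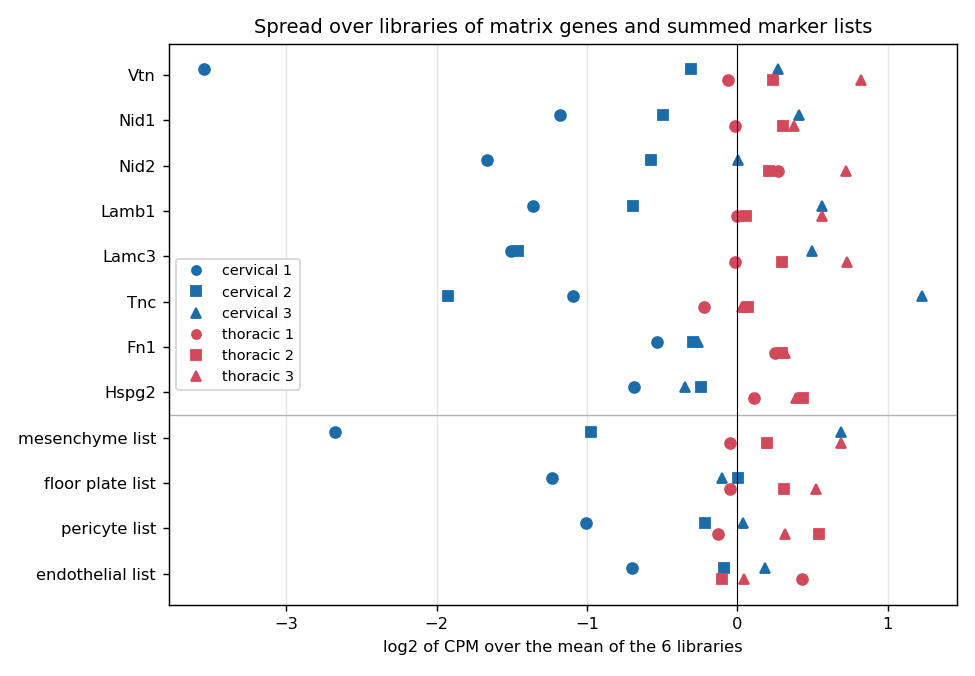
Log2 of each library's CPM over the mean of the 6 libraries, for 8 matrix genes (above the grey line) and 4 summed marker lists (below it); circles, squares and triangles are replicates 1, 2 and 3, blue cervical and red thoracic. Cervical replicate 1 lies far left for Vtn, Nid1, Nid2 and the mesenchyme list, and only Fn1, Hspg2 and Nid2 have all red points right of all blue ones.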

How the data were processed

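Ribosomal RNA-depleted stranded libraries were made from total RNA, per the labels' protocols. The deposited values are whole-number counts per gene with mm39 coordinates and exon lengths. Per the submitters' processing notes, the authors used FastQC 0.11.9, STAR 2.7.5b and featureCounts 2.0.1. For the strand setting and the annotation release, nothing was given in the sources used here.

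The 46 genes, the lists and the tests were chosen with earlier results of these data known. All 6 libraries were fitted in edgeR 4.0.16 (R 4.3.3) by quasi-likelihood with region as the only term, after TMM scaling (factors 0.989 to 1.01) and edgeR's low-count filter (minimum count 10), which kept 21972 genes and removed 34833 with 0.117% of the counts. Benjamini-Hochberg adjustment ran over all tested genes, with calls below 0.05. Log2 fold changes use edgeR's prior count (0.125), and their standard errors are the absolute fold change over √F. CPM per kilobase divides by the table's exon length. The script was tested on simulated data.

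Between replicates of a region, chi-square over its degrees of freedom was 10.1 to 16.2, above counting noise, so each library counts once. Deviations from the region means correlated across genes at 0.163, 0.160 and 0.195 between same-numbered libraries, which share that number in the labels, so values with the number as a block are given where they change a call. DESeq2 1.42.0, limma-voom (limma 3.58.1), other scalings and filters and leaving out each library were the alternatives. Genes were given full statistics if called with or without the block, among the 5 smallest p-values in either direction, or among the 2 highest per length in their role group. Of the pathway lists, genes called in either fit and the most abundant of each were named. Lrp4, Musk, Rapsn, Ilk, Aldh1a2 and the 8 named interneuron and progenitor markers were named after their values were seen. The values of 1 of the 46 genes are not reported here; it stays in the counts and medians. Upstream sequences come from RefSeq for 30 of the 46 genes.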

Additional observations from a re-analysis of the deposited data

How the results depend on the processing

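Fn1 was called in all 13 alternatives (highest edgeR adjusted p 0.0388), and Hspg2 in all but the 3 leave-outs given above. Over all genes, 42 cervical and 77 thoracic calls became 232 and 515 without the low-count filter, 126 and 282 with DESeq2 and 126 and 306 with the replicate block, and ranged from 1 to 48 and from 8 to 111 when 1 library was left out. The cervical count of 0 among the 46 genes became 1 (Tnr) in each of the first 3 of these settings, and the thoracic count of 2 became 13, 3 and 7, or 1 to 2 with 1 library left out. The unfiltered fit also called Vtn, whose regions overlap; the cause was not tested. On the pathway lists, 0 cervical calls became 2, 1 and 1, and 0 thoracic calls became 17, 9 and 12, 1 with library totals as the only scaling, and 0 to 1 in either direction with 1 library left out. The 11 genes with separate regions became 12 to 20 with fewer libraries to separate. The median of the tested genes stayed between -0.26 and -0.07.

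Only 45 genes were followed through all alternatives. Outside them, Tnc (0.07) was -0.44 and Itga7 (0.12) was -0.05 with the block, among others. Within the 45, signs turned for the following genes, each with a log2 fold change smaller in size than its standard error. Itgal (0.27) was -0.14 with limma-voom, -0.041 with the block and -0.93 to 0.66 with 1 library left out. Leaving out 1 library gave -0.13 to 0.0090 for Itga3, -0.42 to 0.38 for Itgae, -0.092 to 0.19 for Itgav, -0.23 to 0.073 for Itgb8, -0.0028 to 0.37 for Itgb7, -0.027 to 0.19 for Reln, -0.059 to 0.047 for Bcar1 and -0.0034 to 0.14 for Ncan. Of 583 alternative values for 45 genes, 505 kept side and sign, 57 gained the call, 3 lost it and 18 changed sign. There were 3 libraries per region, with a biological coefficient of variation of 15.4%. The size of difference that could be detected was not measured, and an adjusted p above 0.05 does not show equal levels.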

Other observations

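The integrin subunits of blood cells were low, and some were near the limit of detection. Itgb7 and Itga2b stood above it, at 40 to 117 and 77 to 252 counts per library. Itgal, the α chain of the lymphocyte receptor LFA-1, lay between 0.219 and 1.29 CPM, with the highest value in cervical replicate 2 (log2 fold change 0.27, edgeR adjusted p = 0.962). Itgb2, the β chain of LFA-1 and of the myeloid receptors, reached 13 counts in 1 library and was at 0 in others. The macrophage markers summed to 5.58, 17.2 and 12.1 CPM in cervical and 5.62, 9.97 and 4.91 CPM in thoracic libraries, and were also highest in cervical replicate 2. Itgae, an epithelium-homing lymphocyte chain, was at 0.469 to 1.36 CPM (log2 fold change -0.06, edgeR adjusted p = 0.992). Itgb7, its β partner, was at 2.36, 1.88 and 2.003 CPM in cervical and 2.18, 1.23 and 1.98 CPM in thoracic libraries, with overlap (log2 fold change 0.20, edgeR adjusted p = 0.929). The platelet chain gene Itga2b ran from 2.41 to 5.77 CPM.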
